A study of Mus musculus with 1 sample.

Results

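The insulin-like growth factor (IGF) axis was described in single testis cells through 9 genes, chosen by symbol from the 27998 genes of the deposited table with their cell-type pattern already known. These were the ligand gene Igf1, the receptor genes Igf1r and Insr, and the binding protein genes Igfbp2, Igfbp3, Igfbp4, Igfbp5, Igfbp6 and Igfbp7. Their levels below are therefore descriptions, with no test. The cells came from wild-type C57BL/6 mice at postnatal day 8, when spermatogonia are the germ cells of the seminiferous cords. Cells from 3 mice were pooled in equal numbers into 1 library after enrichment of THY1+ cells with magnetic beads, and a small part of the unsorted testis suspension was added back. The study also made a library from Zscan2-KO mice, which was not analysed here, so no genotypes are compared.

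IGF1 is a secreted growth factor that signals through the receptor tyrosine kinase IGF1R, and the related insulin receptor INSR binds insulin with higher affinity than IGF1. The IGF binding proteins are secreted carriers that hold IGFs outside the cell and can limit or prolong their access to the receptor. IGFBP6 is known for preferring IGF2 over IGF1, and IGFBP7 binds IGFs only weakly. In the testis, IGF signalling is known for roles in Sertoli cell proliferation, Leydig cell maturation and the support of spermatogonia.

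Of 970 cell barcodes holding 2655 to 44915 unique molecular identifiers (UMIs, 1 per captured transcript), 920 were kept and 18665 genes had a UMI in them. Clustering gave 7 classes named "-like" from marker genes, with 186 stromal-like, 94 peritubular myoid-like, 35 macrophage-like, 255 Sertoli-like, 112 SSC-like (spermatogonial stem cell), 79 progenitor-like and 133 differentiating-like cells. SSC-like and progenitor-like cells are together called undifferentiated germ cells (191 cells). The sort and the added cells set these numbers, which are no measure of testis composition. Each somatic list was highest in its own class, and the summed germ cell markers (Ddx4, Dazl and 4 others) stood at 1237, 1350 and 1515 counts per 1000000 UMIs (CPM) in the SSC-like, progenitor-like and differentiating-like classes, against 21.6 to 33.1 in the 4 somatic classes. The classes were named from these same lists, so the marker levels are no separate check of the names. The SSC markers (Id4, Etv5, Bcl6b, Lhx1, Nanos2, Eomes) stood at 197 CPM in the SSC-like, 78.1 in the progenitor-like and 8.42 in the differentiating-like class. The progenitor name was the least firm, since its list stood at 727 CPM there, 434 in SSC-like and 509 in Sertoli-like cells. Hemoglobin genes, with nearly all UMIs from 1 barcode, were among the cluster's leading genes, and Igfbp6 was as well. Without that barcode a cluster of 75 cells was named progenitor-like, with no hemoglobin gene among its leading genes. A cluster of 26 cells with both pericyte and T cell markers stayed unnamed. Median depth ran from 7446 UMIs in myoid-like to 22293 in SSC-like cells. Levels are the UMIs of a gene summed over a class scaled to 1000000 UMIs of that class, and the parentheses hold exact 95% intervals for counting error alone, because cells of 1 pooled library are not replicates. "Apart" is used below only for ratios whose interval does not hold 1. The library was read from the 3′ end, so a level counts transcripts and is not divided by transcript length.

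The promoters of the 4 binding protein genes with the most UMIs are shown so that Igfbp2, which led in germ cells, can be set beside 3 that were high in somatic cells. Each line is the 250 bases upstream of the first RefSeq start site (GRCm38.p6), 5′ to 3′ on the strand of the gene. The windows are chr1:72824230-72824479 on the plus strand for Igfbp2, chr11:99040994-99041243 on the plus strand for Igfbp4, chr15:102143936-102144185 on the plus strand for Igfbp6 and chr5:77408046-77408295 on the minus strand for Igfbp7. Capitals mark matches to 3 motifs, each searched on both strands. The GC box is spelled GGGCGG here, and it is the site known for Sp1 family factors. The TATA box, which positions the transcription machinery, is spelled TATAAA. The E box, known for binding basic helix-loop-helix factors, is spelled CACGTG and reads the same on the other strand.
Igfbp2: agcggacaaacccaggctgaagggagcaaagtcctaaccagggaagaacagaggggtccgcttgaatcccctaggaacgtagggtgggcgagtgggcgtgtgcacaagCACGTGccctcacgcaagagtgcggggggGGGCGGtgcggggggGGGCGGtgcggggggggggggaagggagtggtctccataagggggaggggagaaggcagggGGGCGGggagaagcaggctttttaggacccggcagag
Igfbp4: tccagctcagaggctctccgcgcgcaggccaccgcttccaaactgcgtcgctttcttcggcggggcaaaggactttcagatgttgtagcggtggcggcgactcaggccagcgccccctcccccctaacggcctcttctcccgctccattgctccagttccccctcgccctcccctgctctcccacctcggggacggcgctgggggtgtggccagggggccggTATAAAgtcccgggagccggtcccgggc
Igfbp6: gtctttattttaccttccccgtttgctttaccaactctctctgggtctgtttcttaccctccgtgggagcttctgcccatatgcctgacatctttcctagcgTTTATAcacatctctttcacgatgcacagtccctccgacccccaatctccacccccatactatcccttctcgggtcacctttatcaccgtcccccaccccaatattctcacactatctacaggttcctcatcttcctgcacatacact
Igfbp7: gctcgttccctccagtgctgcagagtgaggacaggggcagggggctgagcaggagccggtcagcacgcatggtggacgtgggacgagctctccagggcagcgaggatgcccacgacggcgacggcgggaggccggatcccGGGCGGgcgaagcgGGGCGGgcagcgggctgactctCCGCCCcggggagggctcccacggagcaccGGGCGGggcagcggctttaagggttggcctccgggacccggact
Igfbp2 held 3 GC boxes and 1 E box in a window of 67.2% G and C, and Igfbp7 held 4 GC boxes in one of 74%. Igfbp4 held 1 TATA box at 69.2% G and C. The Igfbp6 window ended at 102144185, short of the annotated gene start at 102144362, whereas the Igfbp4 window met its annotated start. Igfbp6 held 1 TATA box match on the opposite strand, at 49.6% G and C, against a median of 52.4% over the 32851 promoters of the table. Among those promoters 32.7% held a GC box, 12.4% a TATA box and 6.02% an E box. No motif was held by all 3 promoters of the somatic genes, and a match is a description of letters only.

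Igf1 (chr10:87858265-87937042, GRCm38, plus strand) was carried by macrophage-like and stromal-like cells. Macrophage-like cells held 934 CPM (852 to 1021) from 482 UMIs, stromal-like cells 495 CPM (461 to 530) from 812 UMIs and peritubular myoid-like cells 192 CPM (162 to 226) from 142 UMIs. The 3 levels stood apart from one another, at 1.89-fold for macrophage-like over stromal-like cells and 2.58-fold (2.16 to 3.10) for stromal-like over myoid-like cells. A UMI of Igf1 was found in 97.1% of macrophage-like, 84.9% of stromal-like and 67.0% of myoid-like cells. In every other named class Igf1 was near the floor, with 7.41 CPM in Sertoli-like cells from 17 UMIs and 2.04 to 5.53 CPM in the germ cell classes. Because macrophage-like cells were few, they gave 32.7% of the 1473 Igf1 UMIs and stromal-like cells 55.1%, while germ cells gave 1.36%.

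**Figure D1:**
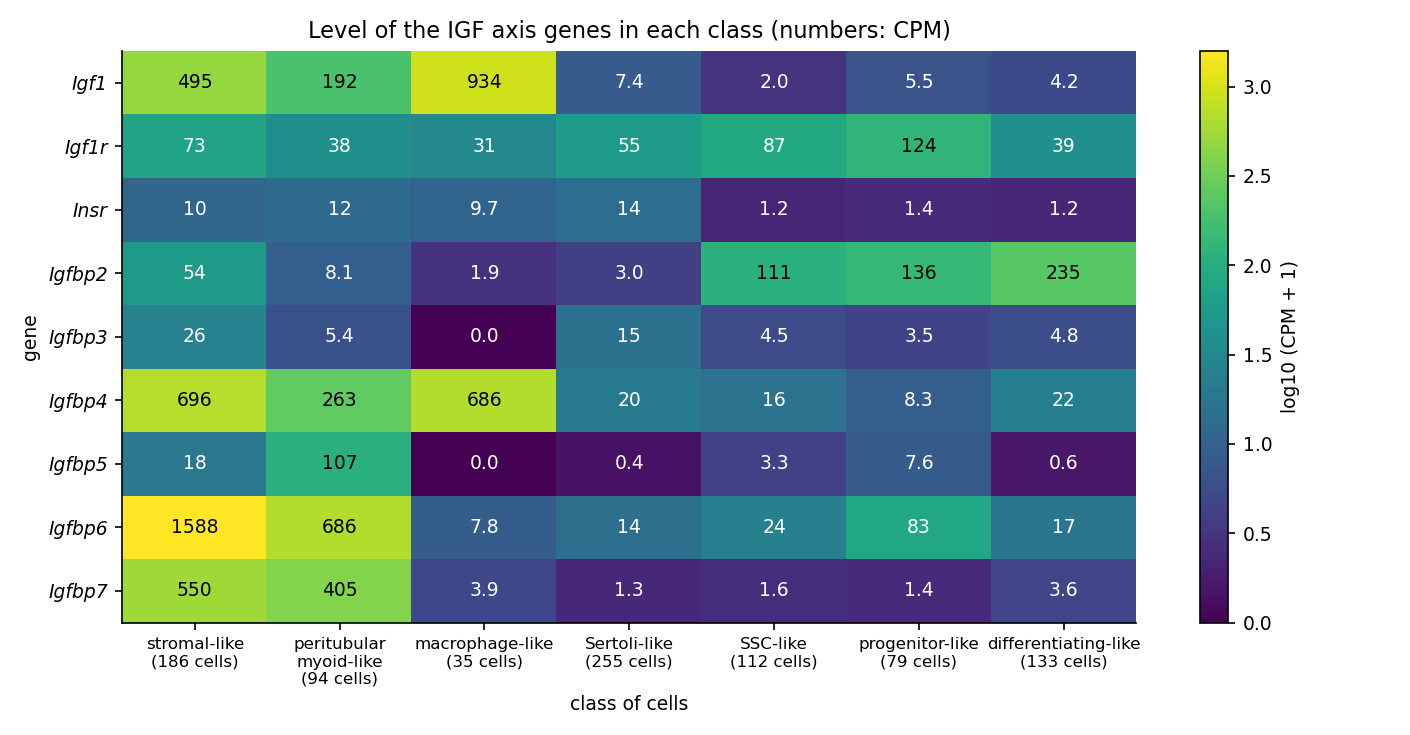
Level of each of the 9 genes (rows) in each of the 7 named classes (columns), as CPM printed in the cells and coloured on a log10 scale. Igf1, Igfbp4, Igfbp6 and Igfbp7 are high in stromal-like cells and Igfbp2 in the germ cell classes. Igf1r is highest in SSC-like and progenitor-like cells, but in differentiating-like cells it is lower than in stromal-like and Sertoli-like cells.

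The receptor gene Igf1r (chr7:67952827-68233668, plus strand) was found in all classes and was highest in undifferentiated germ cells. Progenitor-like cells held 124 CPM (106 to 143) from 179 UMIs and SSC-like cells 87.1 CPM (75.8 to 99.6) from 213 UMIs, a 1.42-fold (1.16 to 1.74) difference. This order depended on which cells were named progenitor-like. At resolution 1.2 in place of 0.5, most of these progenitor-like cells fell in an unnamed cluster with 116 CPM. The 38 cells then named progenitor-like, mostly other cells, held 74.1 CPM and SSC-like cells 102. Differentiating-like cells held 39.1 CPM (30.2 to 49.8), so that the undifferentiated cells together, at 101 CPM, were 2.58-fold (1.98 to 3.41) higher. With a limit of at least 200 genes per cell the ratio was 5.41-fold, but against a different set of cells. Only 30 cells, led by Ly6k, Prss50 and Esx1, were then named differentiating-like, and a cluster of 121 cells with Kit and Stra8 stayed unnamed. Germ cells thus held the receptor transcript and hardly any Igf1. Among somatic cells Igf1r stood at 73.1 CPM (60.6 to 87.4) in stromal-like, 55.3 in Sertoli-like, 37.8 in myoid-like and 31.0 in macrophage-like cells, and SSC-like and stromal-like cells were not apart. Igf1r was not even among differentiating-like cells, at 46.1 CPM in a cluster of 101 cells and 17.2 in one of 32 cells led by Prss50, Ly6k and Esx1. In the first clustering, a shallow cluster of 62 germ cells (median 3905 UMIs) held 16.0 CPM of Igf1r, from only 5 UMIs. Thinned to 5000 UMIs per cell, with shallower cells left out, an Igf1r UMI was left in 45.8% of the progenitor-like cells, 30.9% of the SSC-like cells and 15.5% of the differentiating-like cells, against 77.2%, 77.7% and 32.3% before thinning. Of the 752 Igf1r UMIs 60.8% came from germ cells, a share that also reflects their depth. All germ cells together held 82.3 CPM (74.9 to 90.2), and stromal-like cells were not apart from them (log2 −0.17, −0.47 to 0.12).

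Insr (chr8:3122061-3279617, minus strand), the insulin receptor gene, was sparse at 69 UMIs in all and was somatic. Sertoli-like cells held 13.5 CPM (9.18 to 19.2) from 31 UMIs, myoid-like cells 12.2, stromal-like cells 10.4 and macrophage-like cells 9.69, and neighbours in this order were not apart. Each germ cell class held 2 or 3 UMIs, at most 1.38 CPM. Undifferentiated germ cells stood at 0.0952 (0.0289 to 0.247) of the Sertoli-like level, so the cells that were highest for Igf1r were among the lowest for Insr.

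The make-up of the binding protein transcripts differed between somatic and germ cell classes. Of the UMIs of the 6 binding protein genes, Igfbp6 took 54.2% (52.8 to 55.6) in stromal-like cells and 46.5% (43.5 to 49.5) in myoid-like cells. Igfbp4 took 98.1% (96.0 to 99.2) in macrophage-like cells. In germ cells Igfbp2 led, with 83.0% (79.3 to 86.3) in the differentiating-like class, 69.4% (64.6 to 73.9) in the SSC-like class and 56.6% (51.2 to 61.9) in the progenitor-like class. Sertoli-like cells had no clear leader, with 36.6% (28.1 to 45.7) for Igfbp4, 27.6% (19.96 to 36.4) for Igfbp3 and 26.8% (19.2 to 35.6) for Igfbp6. They also had the least, at 53.6 CPM for the 6 genes together, against 2931 CPM in stromal-like, 1475 in myoid-like, 700 in macrophage-like and 160 to 283 in germ cell classes.

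**Figure D2:**
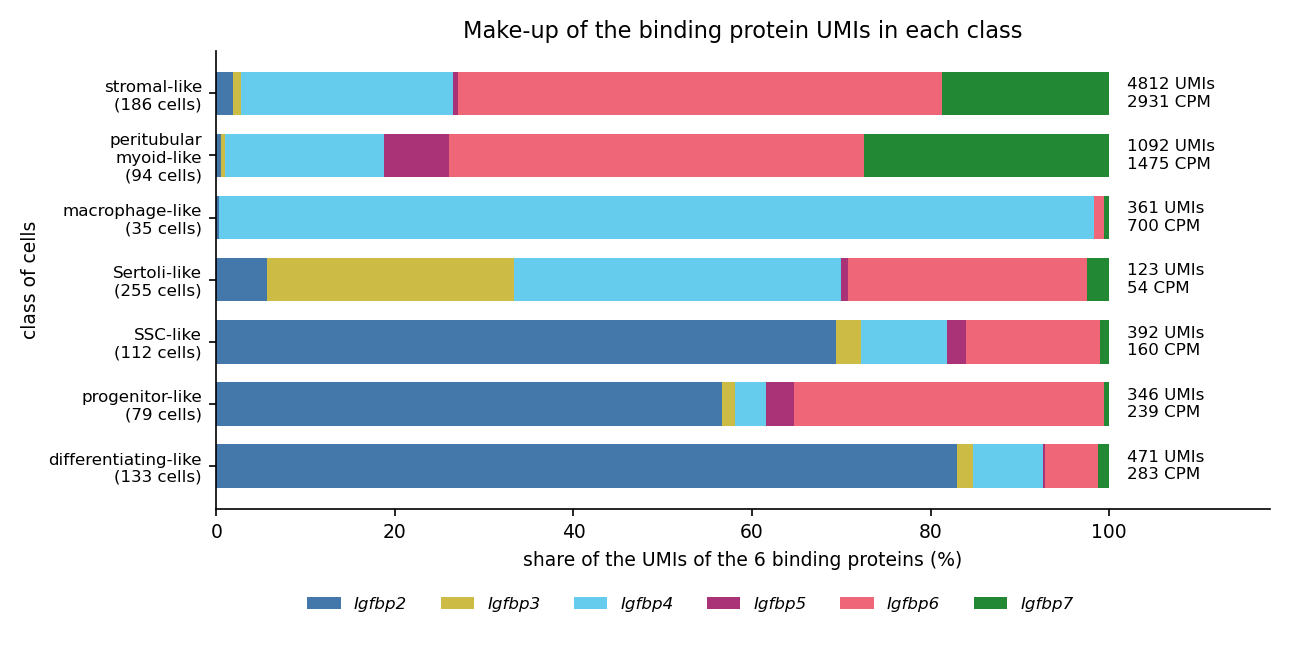
Stacked bars give the share (%) of the UMIs of the 6 binding protein genes that each gene took in a class, with the number of UMIs given for each class. Igfbp6 leads in stromal-like and peritubular myoid-like cells, Igfbp4 in macrophage-like cells and Igfbp2 in the 3 germ cell classes.

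Igfbp2 (chr1:72824503-72852474, plus strand), which encodes a major circulating carrier of IGF1 and IGF2, was the binding protein gene of germ cells. Differentiating-like cells held 235 CPM (212 to 260) from 391 UMIs, progenitor-like cells 136 CPM (117 to 156) from 196 UMIs and SSC-like cells 111 CPM (98.4 to 125) from 272 UMIs. The level was thus lower in undifferentiated cells, at 0.512 of the differentiating-like level (log2 −0.97, −1.16 to −0.77). Progenitor-like over SSC-like cells stood at 1.22-fold (1.01 to 1.47), an order that turned on UMIs that clustering had not used (127 against 135 CPM). At resolution 1.2 most of these progenitor-like cells fell in an unnamed cluster with 139 CPM. The 38 cells then named progenitor-like held 174 CPM and SSC-like cells 74.4, a 2.34-fold ratio between other sets of cells. After thinning, an Igfbp2 UMI was left in 73.2% of differentiating-like, 43.1% of progenitor-like and 34.5% of SSC-like cells, against 1.28% of Sertoli-like cells. Unthinned, these shares were 79.7%, 72.2%, 77.7% and 2.75%. Stromal-like cells were the only somatic class above 10 CPM, at 54.2 (43.5 to 66.7), and 89.2% of the 963 Igfbp2 UMIs came from germ cells. Igf1r and Igfbp2 UMIs occurred together in 61.6% of the SSC-like class, 63.3% of the progenitor-like class and 30.1% of the differentiating-like class, shares that also move with depth.

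**Figure D3:**
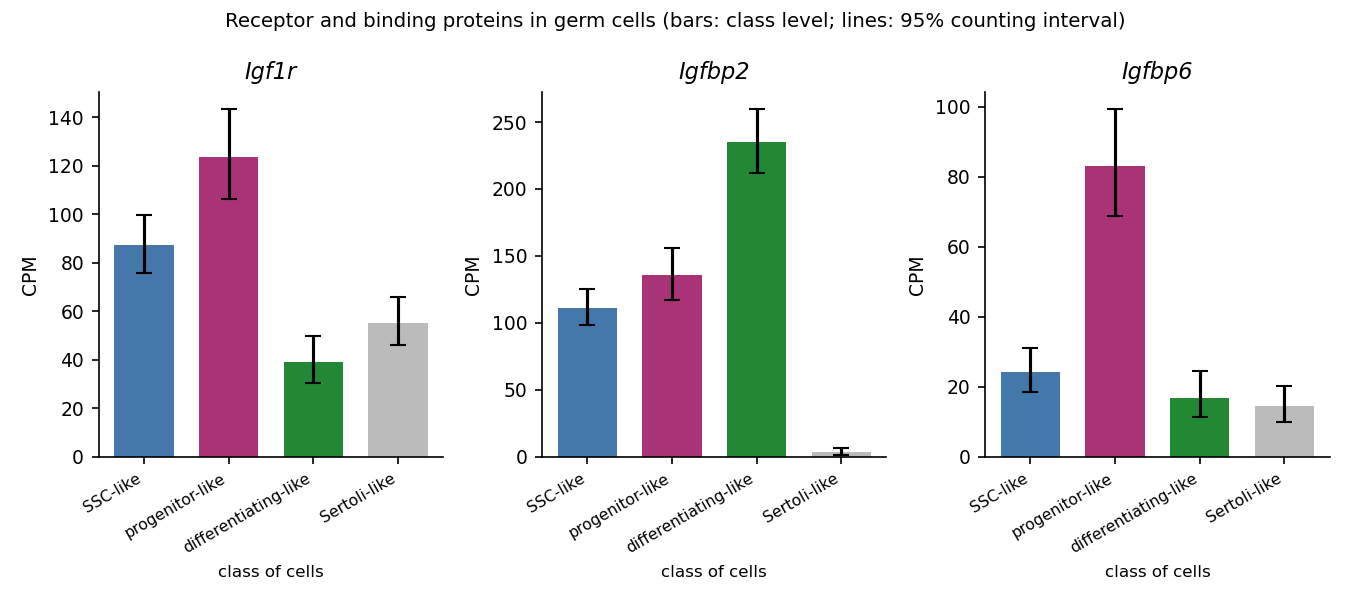
Bars give the level (CPM, axes from 0) of Igf1r, Igfbp2 and Igfbp6 in the 3 germ cell classes, with Sertoli-like cells for comparison, and lines the 95% counting interval. Igf1r and Igfbp6 are highest in progenitor-like cells and Igfbp2 in differentiating-like cells. At resolution 1.2 the order of Igf1r between progenitor-like and SSC-like cells turns, but mostly other cells are then named progenitor-like.

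Igfbp6 (chr15:102144362-102149511, plus strand) was the most abundant member in stromal-like cells and was also found in undifferentiated germ cells. Stromal-like cells held 1588 CPM (1528 to 1650) from 2607 UMIs, with at least 1 UMI in 97.8% of cells, and myoid-like cells 686 CPM (628 to 748) from 508 UMIs in 98.9% of cells. The stromal-like level was 2.31-fold the myoid-like level (log2 1.21, 1.07 to 1.35). Stromal-like and myoid-like cells together gave 92.7% of the 3360 UMIs, and the median stromal-like cell stood at 1445 CPM. In germ cells the level was far lower, and germ cells gave 6.16% of the UMIs.

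Among germ cells Igfbp6 was uneven. Progenitor-like cells held 83.0 CPM (68.8 to 99.2) from 120 UMIs, SSC-like cells 24.1 CPM (18.4 to 31.1) from 59 UMIs and differentiating-like cells 16.8 CPM (11.2 to 24.3) from 28 UMIs. The progenitor-like level was 3.44-fold (2.50 to 4.78) that of SSC-like cells and 4.93-fold (3.25 to 7.73) that of differentiating-like cells, while SSC-like over differentiating-like cells, at 1.43-fold (0.900 to 2.34), were not apart. Pooled, the undifferentiated cells held 46.0 CPM (39.5 to 53.3) from 179 UMIs, 2.73-fold (log2 1.45, 0.87 to 2.08) the differentiating-like level. The stromal-like level was 34.5-fold (29.7 to 40.4) that of the undifferentiated cells and 19.1-fold (15.9 to 23.2) that of progenitor-like cells. Igfbp6 was among the leading genes of the progenitor-like cluster, though not among the genes used to divide the germ cells. Its levels were also taken from UMIs that clustering had not used, and it then stood at 71.1 CPM in the progenitor-like class, 21.4 in the SSC-like class and 18.8 in the differentiating-like class.

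In droplet libraries free RNA gives some UMIs in cells that do not express a gene, so Sertoli-like cells (median 8343 UMIs) served as the comparison for germ cells. Igfbp6 there stood at 14.4 CPM (9.90 to 20.2), with a UMI in 11.8% of cells, and macrophage-like cells held 4 UMIs. After thinning, 33.3% of 72 progenitor-like cells had an Igfbp6 UMI (62.0% unthinned, median depth 19446, 7 cells left out), against 7.23% of 235 Sertoli-like cells (20 left out). For SSC-like cells the thinned share was 7.27% of 110 cells (32.1% unthinned, 2 left out) and for differentiating-like cells 8.25% of 97 (18.8% unthinned, 36 left out), both close to the Sertoli-like share. Over all UMIs the SSC-like level was 1.68-fold (1.08 to 2.65) the Sertoli-like level, and the progenitor-like level 5.77-fold (3.90 to 8.76). Sertoli-like cells were shallower than SSC-like cells (median 22293 UMIs), so close shares need not mean an equal part of free RNA. That part was not tested in any class.

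Cell by cell, 30 of the 79 progenitor-like cells had no Igfbp6 UMI, 18 had 1, 24 had 2 to 4 and 7 had 5 or more, with a highest count of 7. In SSC-like cells the corresponding numbers were 76, 23, 12 and 1. The germ cell signal was thus spread over many progenitor-like cells at low counts. In stromal-like cells 156 of 186 had 5 or more UMIs, and the highest count was 83.

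**Figure D4:**
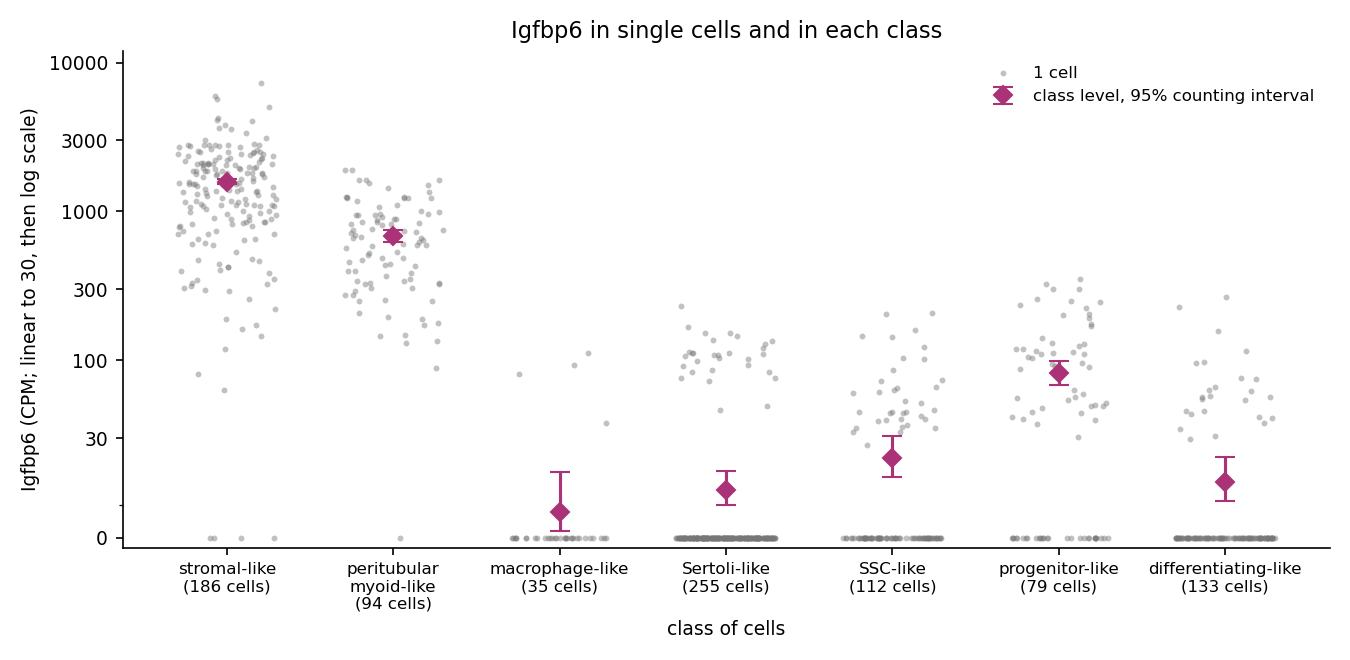
Each point is 1 cell, plotted by class at its Igfbp6 level (CPM of that cell, on an axis that is linear to 30 and then log), and diamonds give the class level with its 95% counting interval. Most stromal-like and peritubular myoid-like cells lie above the germ cells, and progenitor-like cells hold more cells above 0 than the other germ cell classes.

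The 6 stromal markers Pdgfra, Dcn, Lum, Tcf21, Col1a1 and Col3a1 were set beside Igfbp6 as a measure of stromal RNA in germ cells. In progenitor-like cells Igfbp6 stood at 5.23% (4.31 to 6.28) of its stromal-like level, above each marker, the highest being Col1a1 at 2.05% (1.48 to 2.77). It also stood above each marker in Sertoli-like cells, but closely, at 0.905% (0.622 to 1.27) with markers from 0.359 to 0.851%. In SSC-like cells Igfbp6, at 1.52% (1.15 to 1.97), lay within the range of the markers, which ran from 0 to 2.36%. Only Pdgfra (2.36%) and Col1a1 (1.66%) stood above it there, with Dcn, Lum, Tcf21 and Col3a1 at 0 to 0.558%. Pdgfra stood at 8.18 CPM in SSC-like and 1.31 in Sertoli-like cells, and Col1a1 at 24.1 and 9.58. The other markers differed little there, with Col3a1 at 9.82 and 8.71, Dcn at 12.3 and 13.5, Lum at 0 and 0.436 and Tcf21 at 0 and 0.871. Whether germ cells express these markers themselves was not tested. In differentiating-like cells Igfbp6 also lay within the range, at 1.06% (0.703 to 1.54) with markers from 0 to 1.21%. The summed markers differed little between germ cell classes, at 57.4 CPM (progenitor-like), 54.4 CPM (SSC-like) and 45.1 CPM (differentiating-like). They were lower in Sertoli-like cells, at 34.4 CPM, and macrophage-like cells, at 34.9, and stood at 7521 in stromal-like cells. Progenitor-like cells with an Igfbp6 UMI (49 cells) held 54.8 CPM of the stromal markers and those without (30 cells) 63.7. By share of cells with a stromal marker UMI the order turned, at 63.3% and 56.7%, with median depths of 20705 and 15106 UMIs. In SSC-like cells the levels were 52.1 and 55.7 CPM. Cells with an Igfbp6 UMI stood higher in the differentiating-like (48.2 against 43.8), Sertoli-like (48.4 against 32.1) and macrophage-like class (68.6 against 30.6). The intervals of each pair overlapped. The undifferentiated level was 46.4 CPM over germ cells without any stromal marker UMI, an alternative added after the data were seen. The differentiating-like level was then 11.6 CPM, against 16.8 over all cells of that class.

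**Figure D5:**
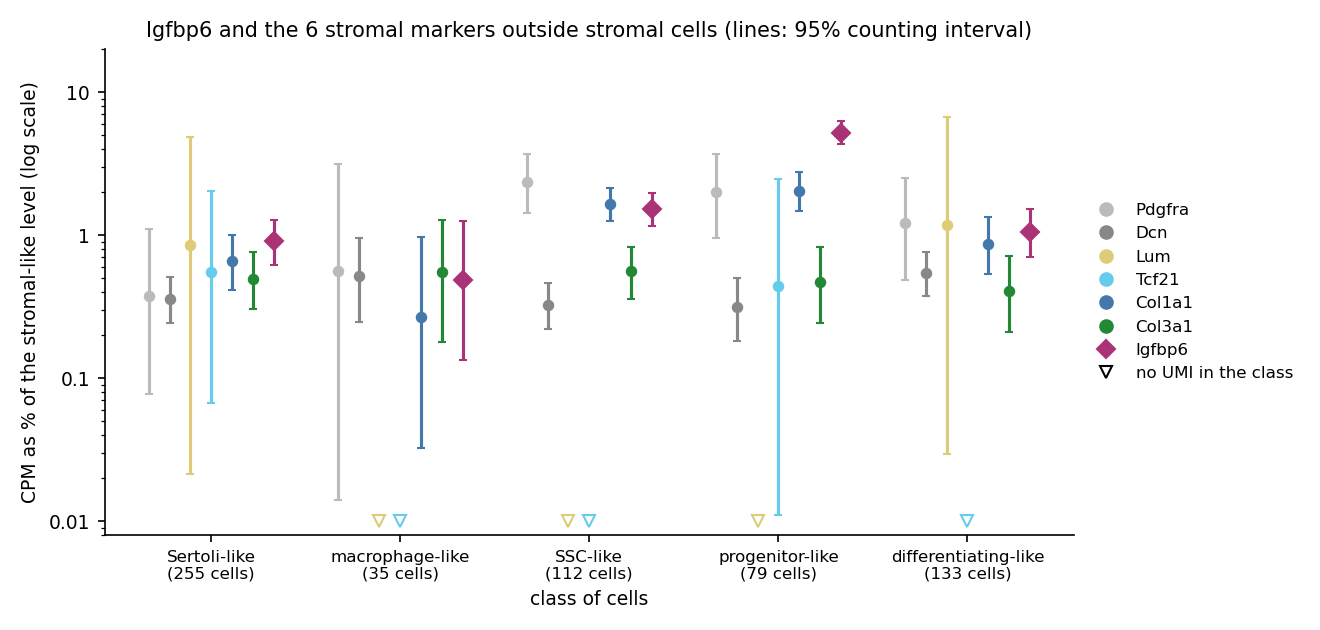
Level of Igfbp6 and of 6 stromal markers in the classes other than stromal-like and peritubular myoid-like cells, as a percent (log axis) of the stromal-like level of the same gene, with 95% counting intervals and open triangles for genes with no UMI. In progenitor-like cells Igfbp6 lies above every marker, and in SSC-like and differentiating-like cells it lies among them. In Sertoli-like cells it lies just above every marker, with overlapping intervals.

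Which germ cells were named progenitor-like decided part of this pattern. At resolution 1.2, 73 of the 79 progenitor-like cells fell in a cluster of 84 cells that stayed unnamed because hemoglobin genes led it, and it held 78.1 CPM (65.1 to 93.0) of Igfbp6. The 38 cells then named progenitor-like held 31.8 CPM and SSC-like cells 15.9, a 1.999-fold ratio between other sets of cells than the 3.44-fold above. Pooled, the named undifferentiated cells held 21.9 CPM, with a log2 ratio over differentiating-like cells of 0.26. Red blood cell markers summed to 7116 CPM in progenitor-like cells, nearly all of it from 1 barcode with 10102 hemoglobin UMIs, and without that barcode the undifferentiated Igfbp6 level was 46.4 CPM. Clustering at resolution 1.2 was not repeated without that barcode.

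Igfbp4 (chr11:99041244-99054392, plus strand), whose product inhibits IGF action and is cleaved by the protease PAPP-A, was shared by stromal-like and macrophage-like cells. Stromal-like cells held 696 CPM (656 to 737) and macrophage-like cells 686 CPM (616 to 761), which were not apart (log2 0.02, −0.15 to 0.20), with a UMI in 96.8% and 97.1% of cells. Myoid-like cells held 263 CPM (228 to 303). Igfbp4 ran from 8.30 to 22.2 CPM over the germ cell classes, with Sertoli-like cells at 19.6 CPM, and it was the only binding protein gene above 10 CPM in macrophage-like cells.

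Igfbp7 (chr5:77349240-77408041, minus strand), which encodes a secreted protein of vessel walls and stroma, stood at 550 CPM (515 to 587) in stromal-like and 405 CPM (361 to 454) in myoid-like cells. Stromal-like cells were 1.36-fold (1.19 to 1.55) higher. In the other named classes Igfbp7 was 1.31 to 3.88 CPM, which set it apart from Igfbp4, since macrophage-like cells held 2 UMIs. In the unnamed cluster of 26 cells, Igfbp7 stood at 557 CPM (449 to 684). The 9 cells of that cluster with pericyte markers only held 47 of the UMIs, with a UMI in all 9. The 12 cells with T cell markers only held 0, with an interval up to 48.5 CPM. Another 42 UMIs came from 4 cells with neither set of markers, at 1566 CPM (1129 to 2117), and 3 from 1 cell with both. Polr2b, with 558 UMIs, overlaps Igfbp7 on the opposite strand, and whether counting used strand is not given in the sources used here.

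Igfbp5 (chr1:72857932-72874884, minus strand), a carrier that binds extracellular matrix, had 130 UMIs and was centred on myoid-like cells. These held 107 CPM (84.5 to 133) from 79 UMIs in 35.1% of cells, and stromal-like cells 17.7 CPM (11.8 to 25.4), a log2 ratio of 2.59 (1.96 to 3.26). Progenitor-like cells held 11 UMIs (7.61 CPM) and SSC-like cells 8, and no other class had more than 1. Igfbp5 and Igfbp2 lie tail to tail on chromosome 1 with 5457 bases between them, but the first was myoid and the second germinal.

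Igfbp3 (chr11:7206086-7213923, minus strand), the main carrier of IGFs in serum, had 105 UMIs. Stromal-like cells held 25.6 CPM (18.4 to 34.6) and Sertoli-like cells 14.8 CPM (10.3 to 20.7), 1.73-fold (1.07 to 2.80) apart. Germ cell classes held 3.46 to 4.81 CPM. Macrophage-like cells had no Igfbp3 UMI, with an interval up to 7.15 CPM.

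Stromal-like cells were not uniform in these genes. At resolution 1.2 they split into 122 cells led by Clec3b, Dpt, Mfap5 and Dcn and 64 cells led by Kcnk3, Sez6l2, Ms4a10 and Cyp26b1, with median depths of 7805.5 and 9423.5 UMIs. Igf1 stood at 675 CPM in the former and 194 in the latter (3.48-fold, 2.86 to 4.27), and Igfbp6 at 1948 and 986 CPM (1.97-fold, 1.80 to 2.17). Igfbp3 was almost wholly in the former, with 41 UMIs against 1. Igfbp2 ran the other way, at 22.4 and 107 CPM. Leydig cell markers summed to 8.76 CPM in the larger set and 1182 in the smaller, where 1 cell held 387 of the 726 UMIs and the sum without it was 572 CPM. Within the smaller set the 21 cells with a Leydig marker UMI held 180 CPM (131 to 241) of Igfbp2, and the 43 without held 59.5 (37.3 to 90.1). Without that 1 cell, an alternative also added after the data were seen, the former stood at 188 CPM. The stromal-like class therefore held some cells with steroidogenic transcripts, and the part of each cell type in these levels was not tested.

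Several binding protein genes were found in the same stromal-like cells. A UMI of both Igfbp4 and Igfbp6 was seen in 95.2% of the 186 cells, of Igfbp6 and Igfbp7 in 94.6%, and of Igf1 and Igfbp6 in 84.4%. Each of these genes alone was found in 84.9 to 97.8% of the cells, so high joint shares need no link between genes. The rank correlations of their levels over the cells were low, at 0.17, 0.12 and 0.11 for these pairs.

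Counts over all genes give the background for these ratios. Among 8219 genes with at least 50 UMIs over both groups, 7.65% were at least 2-fold higher in undifferentiated than in differentiating-like cells and 5.65% at least 2-fold lower. Of the 4 members that could be measured, Igf1r and Igfbp6 were at least 2-fold higher, Igfbp2 and Igfbp4 were not, and none was 2-fold lower, with Igfbp2 just short of it at 0.512. Between progenitor-like and SSC-like cells, 1.18% of 7025 genes were at least 2-fold higher in the former, and of 4 members this was Igfbp6. Between stromal-like and all 324 germ cells, 10.1% of 9445 genes were at least 4-fold higher in stromal-like cells and 16.1% at least 4-fold lower. Of 7 members, Igf1, Igfbp3, Igfbp4, Igfbp6 and Igfbp7 were higher by that measure and none was lower. The members had been chosen for such patterns, so nothing is read from these counts. The median log2 ratio of the members was 0.29 against −0.10 over 8213 genes in the first comparison. It was 0.40 against −0.07 over 7025 genes in the second and 5.41 against −0.49 over 9230 genes in the last. The first and last medians thus rest on fewer genes than the counts above.

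Genes with a pattern most like that of a member were ranked by the correlation of log2(CPM + 1) over the 7 classes among 9065 genes, a small number of points that share 1 library. For Igfbp6 these were Ifitm1, Col1a1 and Tgfbr3, each at 0.99, and for Igfbp7 Ogn at 0.996, then Gem and Mfap4 at 0.99. For Igf1 they were Nrp1, Emp3 and St6galnac4 (0.98 to 0.99), and for Igfbp4 Degs1, Tspan4 and Emp1 (0.98 to 0.99). The germ cell pattern of Igfbp2 was closest to Ndrg4, Fpgs and Ttll7, each at 0.98, and Igf1r was closest to Wdr34, Aamp and Eif1a (0.93 to 0.94). Igfbp5 was closest to Myl4, H19 and Gnb2l1, each at 0.96, and Igfbp3 to Ubb, Kank1 and Bambi (0.97 to 0.99). The correlation takes no account of how large the differences are. Ubb ran from 1447.5 to 2675 CPM over the classes and Gnb2l1 from 779 to 1400.5, so both were high in every class.

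Other genes of the IGF system completed the picture by class. Of 18 listed, 12 had at least 50 UMIs, 3 (Ins1, Irs1 and Irs4) had fewer and Igfbp1, Igfals and Pappa2 had 0. Igf2, the second ligand gene, was stromal and myoid, at 98.7 CPM (84.1 to 115) and 97.2 CPM, and 0.871 CPM in Sertoli-like cells. Igf2r, which encodes the receptor that clears IGF2, was 33.1 CPM in Sertoli-like and 22.5 CPM in stromal-like cells. Sertoli-like cells, which held few binding protein transcripts, held most of the PAPP-A protease gene Pappa, at 56.6 CPM (47.3 to 67.2) and 130 of 149 UMIs. They also held 86 of the 98 Ins2 UMIs and the highest level of Grb14, an adaptor that inhibits insulin receptor signalling, at 75.8 CPM. Stc1 and Stc2, whose products inhibit PAPP-A, were highest in myoid-like cells, at 166 and 59.4 CPM, followed by stromal-like cells at 40.2 and 19.5. The serine protease gene Htra1 was level between these 2 classes, at 126 CPM in myoid-like and 124 CPM in stromal-like cells. Grb10, an adaptor that restrains IGF1R and INSR, stood at 134 and 109 CPM in the same classes. Ghr, the growth hormone receptor gene, was 38.4 CPM in stromal-like and 23.0 CPM in myoid-like cells. Irs2, a substrate of both receptors, was low, at 11.8 CPM in Sertoli-like and 10.8 in myoid-like cells. Igfbpl1, a relative of the binding proteins, was a germ cell gene like Igfbp2, at 22.1 CPM in the progenitor-like, 14.7 in the SSC-like and 9.02 in the differentiating-like class.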

How the data were processed

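Single-cell RNA libraries were made by the authors with 10x Genomics v2 chemistry. The deposited file holds raw UMI counts per gene and barcode, filtered to cells by the authors with Cell Ranger 2.1.0 on mm10, per the submitters' processing notes. Here, the 1 library analysed (11358045 UMIs, median 9115 per barcode) was filtered to at least 500 genes and under 10% mitochondrial UMIs, which removed 10 and 36 barcodes, and 4 doublets called by scrublet (scanpy 1.11.5, expected rate 0.01) were left out. Cells were clustered in Seurat 5.3.0 (R 4.3.3) with 14 principal components at resolution 0.5, after scaling to 10000 UMIs per cell, and germ cells were clustered again. Clusters were named by the marker list with the highest mean difference in log-normalized expression from the other cells, with at least 3 markers detected. A cluster stayed unnamed when its 10 leading genes held more markers of another class, or when it was shallow with none of its own. At the first step only, a second class also had to stay below 50% of the first. Counting all germ lists together at the first step, and that margin, were set after the first outcome was seen.

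Members and lists were chosen with earlier results of these data known. Named genes were all members, IGF system genes with at least 50 UMIs, and the 3 genes of most similar pattern for each member with at least 100 UMIs. Igf1 and Igfbp3 to Igfbp7 were among the variable genes of the first clustering, and no IGF gene was among those of the germ cells. Ratios of class levels carry exact conditional binomial intervals, levels exact Poisson intervals and shares exact binomial ones. On data simulated from the stromal, Sertoli and macrophage profiles, 100% of 300 cells were named correctly and 95% of 200 intervals held the true ratio. No germ cell class was simulated, so the naming of germ cells was not tested there. The simulated cells of a class differed by counting error and depth alone. With 1 library no test was possible. Results were recomputed under 17 other settings, and under 3 more chosen after seeing the data. Start sites came from RefSeq, and gene positions from the GRCm38 annotation. Insr had no promoter entry.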

Additional observations from a re-analysis of the deposited data

How the results depend on the processing

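No paired analysis was possible because there was 1 library and no comparison between samples. Igfbp6 stood at 1551 to 1638 CPM in stromal-like cells under the other alternatives, but at 2237 with a limit of 5% mitochondrial UMIs and at 2463 with mitochondrial and ribosomal protein genes left out of the total, which shrinks the total by construction. At the 5% limit only a cluster with Clec3b, Dpt and Mfap5 among its leading genes was named stromal-like. A larger cluster that scored highest for the stromal markers stayed unnamed, with a hemoglobin gene leading it. The 2237 CPM thus covers only part of the cells scored as stromal, and the effect of the limit itself was not tested. In undifferentiated cells Igfbp6 stood at 40.3 to 49.5 CPM, but at 72.4 with the smaller total and at 21.9 at resolution 1.2. There the log2 ratio over differentiating-like cells was 0.26 (otherwise 1.10 to 1.996) and that of stromal-like over undifferentiated cells 6.18 (otherwise 5.03 to 5.29), because most progenitor-like cells fell in an unnamed cluster. The 1.996 came from germ cells without any stromal marker UMI, an alternative added after the data were seen. No undifferentiated class was named at resolution 0.3 or at the 5% limit, so there was no value. At resolution 0.3 a germ cell cluster of 194 cells was found but stayed unnamed. The 5% limit left only 67 cells called germ cells, against 324 in the main setting. They formed a single cluster with Stra8 among its leading genes. At the 5% limit 4 classes were named, and all 4 kept their leading binding protein gene. At resolution 0.3 all 5 named did, and 6 of 7 did when values came from UMIs that clustering had not used, where Igfbp6 led in Sertoli-like cells. Of the other class ratios printed, 2 changed direction, both of progenitor-like over SSC-like cells. Igf1r went to a log2 ratio of −0.46 at resolution 1.2, between other sets of cells. Igfbp2 went to −0.090 on UMIs that clustering had not used. A further 24 alternative values of these ratios moved beyond the counting interval and 293 did not. Of single-gene levels 98 moved and 1035 did not, and of shares of cells with a UMI, which depend on depth, 36 moved after thinning and 27 did not.

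Precision was set by UMIs: Insr, Igfbp3 and Igfbp5 rest on 69 to 130 UMIs, and 3 UMIs correspond to 1.23 CPM in SSC-like but 5.81 in macrophage-like cells. Pooling hid differences between the mice, and free RNA, doublets and cell class could not be told apart at 1 or 2 UMIs per cell.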
